A study of Mus musculus with 6 samples.

Results

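The integrated stress response and the aminoacyl-tRNA synthetases that it controls were followed through bone marrow cultures given midkine. The members are a list of 35 gene symbols looked up in the deposited expression table, which holds 14912 genes: 34 were found, and all 34 passed the minimum mean normalised read count of 10 over the 6 libraries. The exception, Stc2, was not analysed here. The members fall into 8 regulators, 6 measured stress targets, 8 genes of serine, one-carbon and proline metabolism and 12 tRNA synthetases. Wild-type C57BL/6J bone marrow was grown in all 6 samples with FLT3 ligand (FLT3LG), the growth factor of dendritic cell development, at 50 ng/ml, with a change of FLT3LG medium on day 7. Recombinant human midkine, a growth factor that binds heparin, was added at 10 ng/ml for the final 2 days in 3 samples, and the 3 control samples were cultured without it. The medium of both groups contained fetal serum, non-essential amino acids, pyruvate and β-mercaptoethanol. These are unsorted cultures labelled as bone marrow derived dendritic cells, read by 3′ end sequencing of RNA. The labels do not say whether replicates were separate mice or cultures, so the spread behind each p-value is that of these samples alone and may be technical.

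The integrated stress response starts when a kinase that senses amino acid shortage, unfolded protein, double-stranded RNA or heme shortage phosphorylates the translation initiation factor eIF2. Most protein synthesis then slows, while the mRNA of the transcription factor ATF4 is translated better. ATF4 pairs with C/EBP proteins and switches on genes for amino acid synthesis and uptake, for charging tRNAs with amino acids, and for feedback that ends or hardens the response. RNA was measured here, and neither eIF2 phosphorylation nor ATF4 protein was.

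Libraries held 5089338 to 5532055 reads in control and 5685055 to 6453768 in midkine samples. The labelled cell type was checked against 7 dendritic cell markers, all of them measured, whose summed normalised read count was 57895 to 62072 in control and 58265 to 62348 in midkine libraries. Of these 7, 2 were called higher (Itgax and H2-Ab1) and 2 lower (Zbtb46 and Irf8), or 28.6% each. Among all genes tested 20.9% were called higher and 21.8% lower, the shares beside which the marker counts here can be read. Several marker lists of dendritic cell types and of other cells moved beside the members, while macrophage markers were mixed. Of 9 macrophage markers 3 were called higher and 3 lower, at a median log2 fold change of -0.21. The 1 lymphoid marker tested was not called. For 7 markers of type 1 conventional dendritic cells the sum was 9503 to 10980 in control and 3465 to 4564 in midkine libraries, with 6 called lower and 1 higher. The summed count of 7 measured stromal markers was 13843 to 17137 in control and 36187 to 39082 in midkine libraries, with 6 called higher and 1 lower. For 8 plasmacytoid dendritic cell markers the sum was 5680.0 to 5867 in control and 1619 to 1683 in midkine libraries, with 7 called lower. Of 7 neutrophil markers 4 were tested, and 3 of these were called lower. The sum of these 4 was 508 to 632 in control and 35.7 to 62.0 in midkine libraries. None of the measured markers of these lists was at 0 in every library. Ribosomal RNA of mitochondria took 9.33% to 9.86% of control reads and 18.1% to 20.9% of midkine reads. The part of these shifts in the results on the members was not tested, and in mixed cultures fewer cells of a type and less RNA per cell cannot be told apart.

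ATF4 and its C/EBP partners bind a composite DNA element, and its core was looked for in the promoters because so many members moved together. The motif searched was TGATGNAA, on both strands, in windows from 250 bases before to 50 bases after each annotated start (RefSeq, GRCm38.p6), with no other motif searched. Windows were found for 30 of the 34 members, and not for Cars, Lars, Nars and Wars. The motif was present in 12 of these 30 (40%), against 252 of 8961 tested genes with a window (2.81%) and 3.97% of all 32851 windows. By group, it was found in 2 of 8 regulators, 3 of 6 stress targets, 2 of 8 metabolic genes and 5 of 8 tRNA synthetases with a window. The list gathers known genes of the pathway and was chosen with earlier results of these data known. The motif count is therefore a description of the members, not independent evidence of binding. The 12 members held 13 sites, of which 11, each of another member, are given here in 30 bases of gene-strand sequence, 5′ to 3′, with the matching bases in capitals.
Trib3, chr2:152344028-152344057, - strand: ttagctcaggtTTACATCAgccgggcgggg
Nupr1, chr7:126625562-126625591, - strand: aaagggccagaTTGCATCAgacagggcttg
Asns, chr6:7693214-7693243, - strand: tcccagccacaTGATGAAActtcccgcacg
Chac1, chr2:119351038-119351067, + strand: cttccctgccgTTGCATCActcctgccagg
Vldlr, chr19:27216809-27216838, + strand: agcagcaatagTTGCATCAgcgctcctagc
Pck2, chr14:55540152-55540181, + strand: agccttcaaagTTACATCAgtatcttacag
Pycr1, chr11:120643833-120643862, - strand: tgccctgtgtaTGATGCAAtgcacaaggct
Gars, chr6:55037960-55037989, + strand: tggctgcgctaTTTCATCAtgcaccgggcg
Iars, chr13:49682126-49682155, + strand: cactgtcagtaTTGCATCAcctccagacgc
Tars, chr15:11399655-11399684, - strand: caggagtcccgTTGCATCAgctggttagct
Yars, chr4:129189895-129189924, + strand: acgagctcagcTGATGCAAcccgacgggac
Sites read TGATGCAA, or its reverse complement, in 8 of the 13. By the GENCODE vM21 annotation 7 sites lay in an annotated exon and 6 lay upstream of the gene. Of the 12 genes 11 were called higher with midkine, the exception being Tars, and so were 15 of the 18 members whose window lacked these letters. A longer stretch, from 250 to 51 bases before the start, is given for a glutathione-degrading enzyme (Chac1), a gluconeogenic enzyme (Pck2) and a proline synthesis enzyme (Pycr1), since these stretches hold the site and no annotated exon.
Chac1, chr2:119350992-119351191, + strand: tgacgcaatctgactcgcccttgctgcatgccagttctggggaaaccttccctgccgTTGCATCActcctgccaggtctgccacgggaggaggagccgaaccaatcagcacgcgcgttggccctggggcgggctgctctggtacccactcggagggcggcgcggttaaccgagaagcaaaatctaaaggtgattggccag
Pck2, chr14:55540016-55540215, + strand: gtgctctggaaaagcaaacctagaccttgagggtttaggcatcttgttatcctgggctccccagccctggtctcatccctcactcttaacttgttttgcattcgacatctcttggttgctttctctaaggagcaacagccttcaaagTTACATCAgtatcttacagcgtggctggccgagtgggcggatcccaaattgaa
Pycr1, chr11:120643799-120643998, - strand: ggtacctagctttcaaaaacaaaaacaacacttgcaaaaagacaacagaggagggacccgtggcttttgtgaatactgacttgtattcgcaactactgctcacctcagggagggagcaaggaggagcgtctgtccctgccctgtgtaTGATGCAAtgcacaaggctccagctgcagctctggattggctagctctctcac
The plot of motif positions places the member sites on either side of the start.

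**Figure D1:**
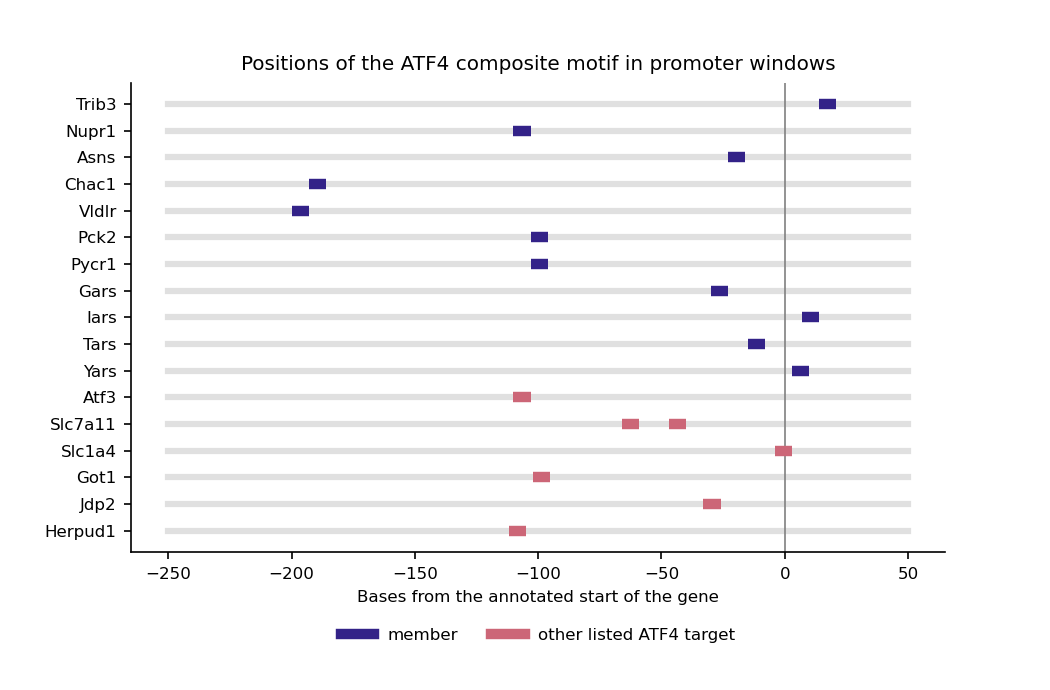
Positions of the motif TGATGNAA, on either strand, in promoter windows from 250 bases before to 50 bases after the annotated start (x axis, bases), 1 row per gene. Dark blue bars are the same 11 sites of members and pink bars those of other listed ATF4 targets; the Vldlr site, at -200, is the farthest from the start among those drawn.

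Midkine-treated samples had higher RNA of most members. Of the 34, 28 were called higher, 1 lower (Psat1) and 5 were not called (limma, Benjamini-Hochberg adjusted p under 0.05 over all 11844 genes tested). Over all genes tested 20.9% were called higher and 21.8% lower. The members and the other gene lists below were chosen with earlier results of these data known, so these contrasts are descriptions. All 3 midkine values lay above all 3 control values for 28 members and below them for 2, Psat1 and Psph, where 25.1% and 26.2% of all genes did so. The median log2 fold change, taken on log2(normalised read count + 1), was 0.78 for the members and -0.01 for all genes tested. Medians were 1.28 for regulators, 1.76 for stress targets, 0.60 for the metabolic genes and 0.51 for tRNA synthetases. Libraries were compared as the authors scaled them. Scaling to total reads instead moved the median of all genes to -0.26. It left 24 members called higher and 3 lower, where 10.8% and 40.7% of all genes were. The members' median was then 0.53. Such scaling shifts all log2 fold changes by nearly the same amount. The members' distance from the median of all genes, 0.79 at both scalings, could therefore hardly change and is no further evidence.

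**Figure D2:**
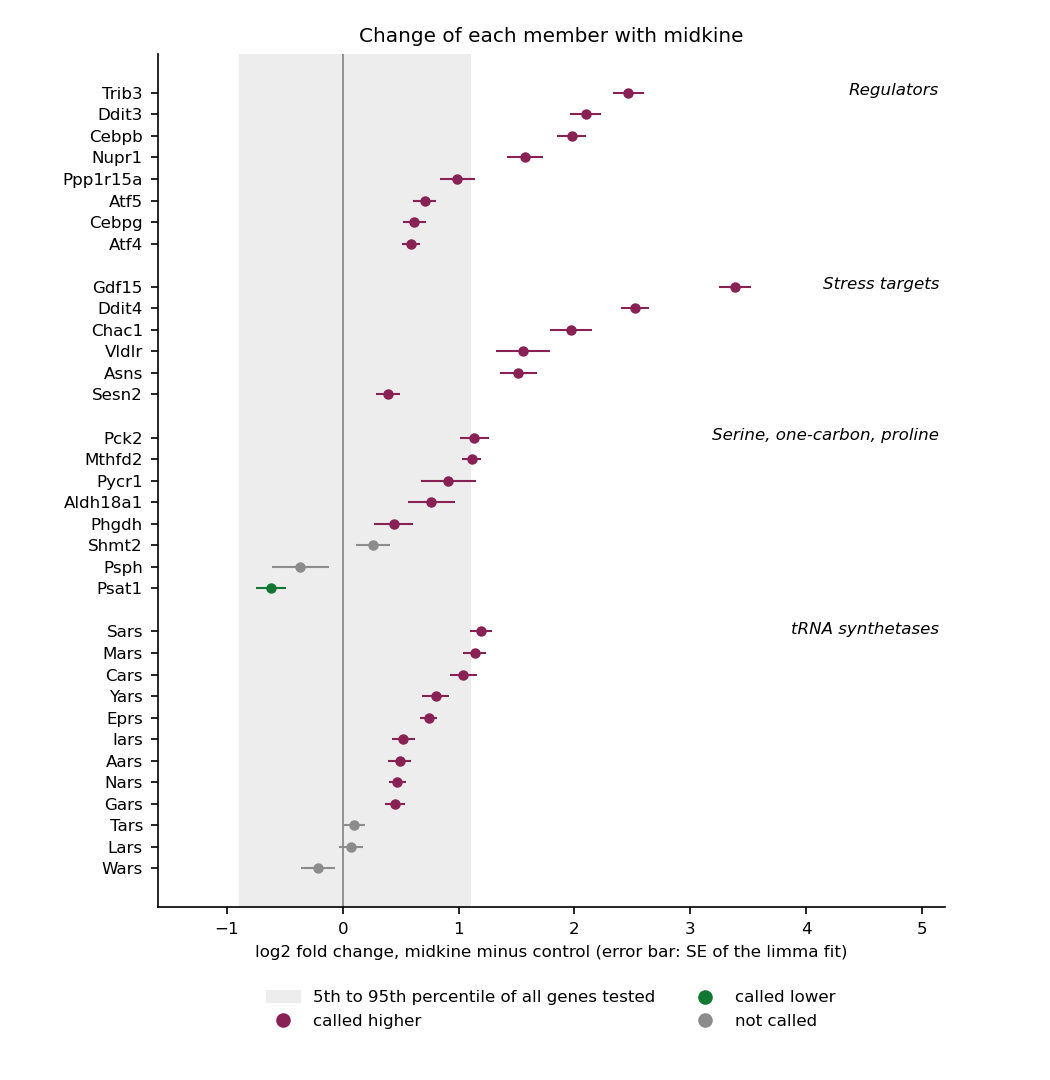
Log2 fold change of each member, midkine minus control (x axis), with the SE of the limma fit as error bars, grouped by role; the grey band spans the 5th to 95th percentile of all genes tested. Gdf15 at 3.39 lies farthest to the right and Psat1 at -0.62 is the one member called lower.

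All 8 regulators rose, by between 0.59 and 2.47 on the log2 scale, and none of their groups overlapped. Atf4, the central transcription factor of the response, was at 2120.4, 2532 and 2375 normalised read counts in control and 3453, 3606 and 3469 in midkine libraries (log2 fold change 0.59, SE 0.08, limma adjusted p = 8.7e-07). Its rise, 1.5-fold between group means, was the smallest of the 8. Atf4 lies on chromosome 15 from 80255184 to 80257541 of GRCm38, the build of the positions below. Atf5, a related factor translated under the same conditions, went from 329.6, 426 and 411 to 628, 614 and 654 (log2 fold change 0.71, SE 0.10, limma adjusted p = 1.6e-06). Cebpg, which pairs with ATF4 on amino acid response genes, went from 195, 208 and 207 to 326, 301 and 311 (log2 fold change 0.62). These 3 genes moved by less than 1 on the log2 scale, with little spread among the midkine libraries.

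The remaining regulators, set apart here by their values, had larger log2 fold changes, from 0.99 to 2.47. Ddit3, which encodes CHOP, a factor of prolonged stress and cell death, was at 93.5, 142 and 154 in control and 528, 576 and 538 in midkine libraries (log2 fold change 2.10, SE 0.13, limma adjusted p = 2.2e-12). The pseudokinase Trib3, which CHOP and ATF4 induce and which restrains both, went from 41.6, 50.4 and 47.9 to 256, 259 and 269 (log2 fold change 2.47, SE 0.13, limma adjusted p = 1.1e-13). Within each group the Trib3 values lay close together, and its lowest midkine value was above its highest control value by far more than either spread. Trib3 lies on chromosome 2 from 152337422 to 152344032 and its site, shown above, is just past the RefSeq start and just outside the GENCODE gene. Cebpb, a C/EBP factor with many roles in myeloid cells, went from 57.6, 62.5 and 56.3 to 222, 242 and 238 (log2 fold change 1.97, SE 0.13, limma adjusted p = 3.9e-12). Nupr1, a small stress-induced chromatin protein, went from 48.2, 79.3 and 70.9 to 199, 202 and 185 (log2 fold change 1.58), with control replicate 1 below the other controls. Ppp1r15a encodes GADD34, the inducible subunit that directs a phosphatase to eIF2 and so ends the response. It went from 101, 68.1 and 77.1 to 167, 145 and 176 (log2 fold change 0.99, SE 0.15, limma adjusted p = 5.8e-06).

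Overlapping transcripts may touch some of these values. The last 68 bases of Ddit3, on the plus strand of chromosome 10 from 127296221 to 127296288, are also exon of Mars on the minus strand. Both genes end there, which is where 3′ end reads fall, and both rose. The strand setting of the counting is not given in the sources used here, so reads of the pair may not be fully told apart. Cebpb shares 312 exonic bases with Tmem189, Atf5 82 with Il4i1 and Nup62, Psph 452 with Cct6a and Yars 30 with C77080, each on the other strand. The shared stretch of Yars is at the 3′ end of the gene and that of Cebpb lies inside the gene. Those of Atf5 and Psph are near the annotated start, away from the 3′ end, where reads of these genes are expected.

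**Figure D3:**
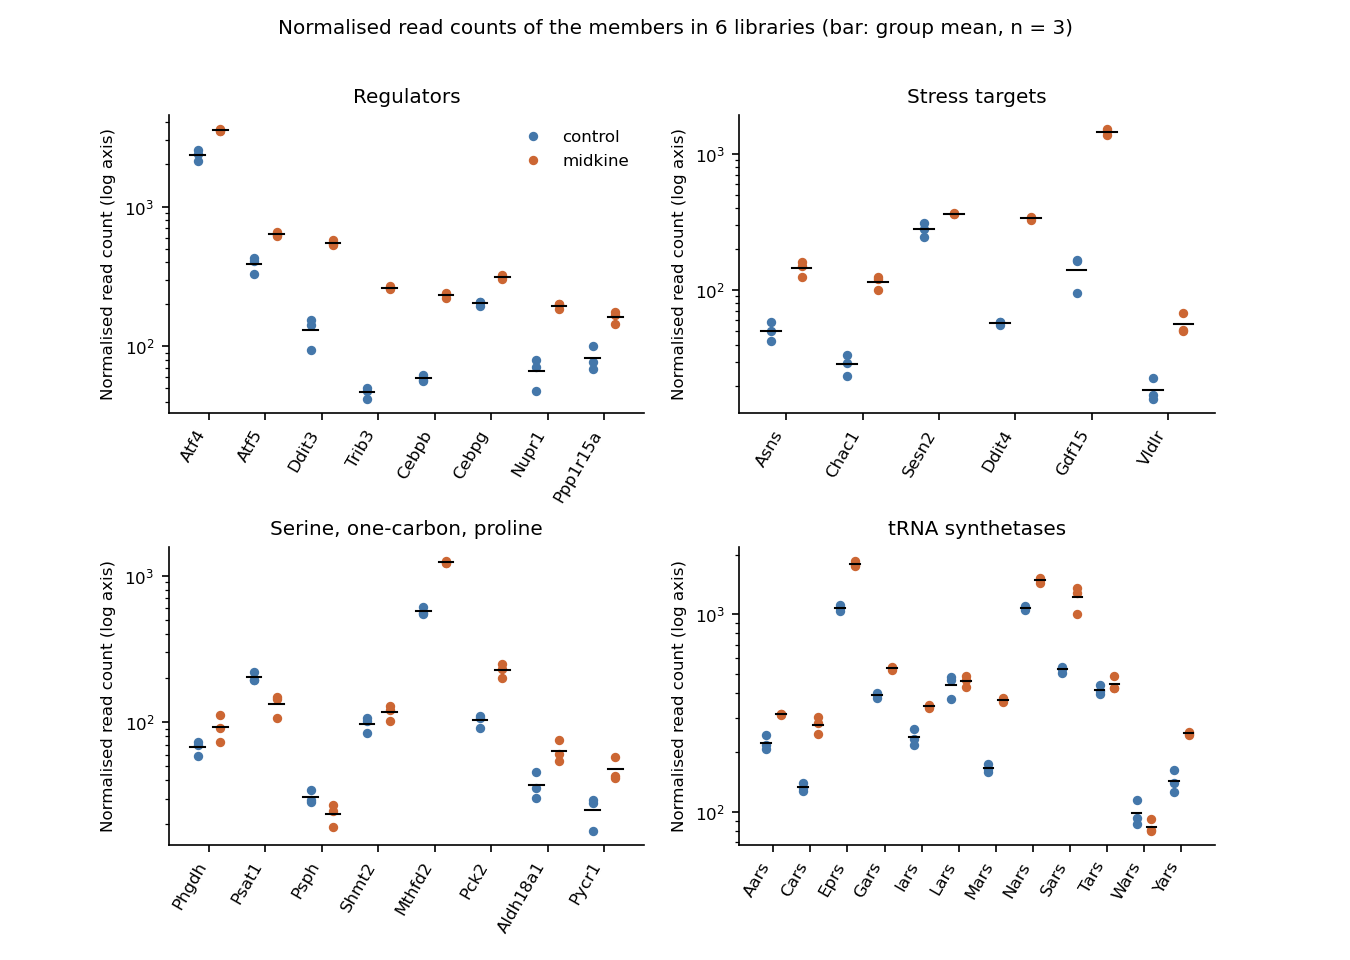
Normalised read counts (y axis, log scale) of the 34 members in 3 control (blue) and 3 midkine (orange) libraries, 1 point per library, with a bar at each group mean. The groups of Trib3, Ddit4 and Gdf15 lie far apart, while those of Lars, Tars, Wars and Shmt2 overlap.

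The 6 measured stress targets rose as well, and in each all midkine values lay above all control values. Gdf15, a secreted stress cytokine, showed the largest change of all members: it was at 95.4, 167 and 163 in control and 1377, 1452 and 1518 in midkine libraries, 10.2-fold between group means. Control replicate 1 was the low one of its group, as for Nupr1 and Ddit3. Ddit4, which encodes REDD1, an inhibitor of the growth kinase mTORC1 that hypoxia also induces, went from 58.6, 58.8 and 55.2 to 327, 335 and 343 (log2 fold change 2.52, SE 0.12, limma adjusted p = 7.5e-15). Sesn2, another stress-induced inhibitor of mTORC1, moved least, from 245, 281 and 309.5 to 368, 360.1 and 362 (log2 fold change 0.39, SE 0.10, limma adjusted p = 0.00287). With scaling to total reads the log2 fold change of Sesn2 was 0.13 and not called.

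Among the other targets, Asns, the enzyme that makes asparagine and a classic reporter of amino acid shortage, went from 42.5, 50.4 and 58.4 to 125, 161 and 150.3 (log2 fold change 1.51, SE 0.16, limma adjusted p = 2.1e-08). Chac1, which breaks down glutathione, went from 23.6, 33.6 and 29.2 to 122, 125 and 99.9 (log2 fold change 1.97, SE 0.18, limma adjusted p = 2.4e-09). Both promoters hold the composite motif shown above, starting at position -23 from the annotated start for Asns and -193 for Chac1. Vldlr, a lipoprotein receptor, had the lowest counts of the members in control libraries and went from 17.0, 15.9 and 22.9 to 67.6, 51.3 and 50.4 (log2 fold change 1.56, SE 0.23, limma adjusted p = 5.5e-06), and its smallest value rests on 17 reads. The Vldlr groups still did not overlap.

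Genes of serine, one-carbon and proline metabolism did not move as a block. Of 8, 5 were called higher, 1 lower and 2 not called. The mitochondrial enzymes Mthfd2 and Pck2 rose most. Mthfd2, which feeds the mitochondrial folate cycle, was at 611, 550.4 and 559 in control and 1230.5, 1269 and 1218 in midkine libraries (log2 fold change 1.11, SE 0.08, limma adjusted p = 2.4e-11). Pck2, mitochondrial phosphoenolpyruvate carboxykinase, went from 111, 107 and 91.7 to 201, 251 and 232 (log2 fold change 1.13, SE 0.13, limma adjusted p = 5.6e-08). Both proline synthesis genes rose, and neither pair of groups overlapped. Aldh18a1, the entry enzyme of the route from glutamate, went from 30.2, 45.7 and 35.4 to 75.5, 60.5 and 54.5 (log2 fold change 0.77, SE 0.20, limma adjusted p = 0.00335), and Pycr1, which completes proline, from 17.9, 28.0 and 29.2 to 41.7, 43.1 and 57.5 (log2 fold change 0.91, SE 0.24, limma adjusted p = 0.00289).

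The chain that makes serine from a glycolytic intermediate was called higher at its first step, lower at the second and not called at the third. Phgdh, the entry step, had 58.6, 72.8 and 69.8 normalised read counts in control and 91.3, 112 and 73.6 in midkine libraries (log2 fold change 0.44, SE 0.17, limma adjusted p = 0.0371). Its lowest midkine and highest control values nearly touched. The Phgdh call was lost without midkine replicate 2 (log2 fold change 0.29), without control replicate 1 (0.35), without control replicate 3 (0.47) and without midkine replicate 1 (0.44). DESeq2 did not call it either (0.47, adjusted p = 0.0765), nor did limma with scaling to total reads (0.18). Psat1, the transaminase of the chain, fell from 193, 220.2 and 195 to 148, 144 and 106 (log2 fold change -0.62, SE 0.13, limma adjusted p = 0.0004), with no overlap of the groups. Psat1 lies on chromosome 19 from 15904678 to 15947337. Psph, the phosphatase that completes serine, was at 28.3, 34.5 and 29.2 and 19.2, 24.7 and 27.2 (log2 fold change -0.37, 95% interval -0.87 to 0.14, limma adjusted p = 0.239), and was called lower at -0.62 with scaling to total reads. Shmt2, which turns serine into glycine in mitochondria, was at 102, 84.0 and 106 and 121, 128 and 102, with overlapping groups (log2 fold change 0.26, SE 0.14, limma adjusted p = 0.148).

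Of the 12 tRNA synthetases 9 were called higher, none lower, and Lars, Tars and Wars were not called. These enzymes each join 1 kind of amino acid to its tRNAs. Sars, for serine, changed most: it was at 505, 531 and 542 in control and 1286, 1008 and 1356 in midkine libraries (log2 fold change 1.20, SE 0.09, limma adjusted p = 1.6e-10). Midkine replicate 2 was the low one of its group and still lay above every control. Mars, for methionine, went from 159, 165 and 175 to 375, 367 and 358 (log2 fold change 1.14, SE 0.10, limma adjusted p = 1.2e-09), and Cars, for cysteine, from 131, 128 and 141 to 301, 280.4 and 247 (log2 fold change 1.04, SE 0.11, limma adjusted p = 4e-08). Yars, for tyrosine, went from 126, 139.9 and 164 to 245, 255 and 248 (log2 fold change 0.80, SE 0.12, limma adjusted p = 3.8e-06). The bifunctional glutamate and proline enzyme Eprs went from 1036, 1114 and 1075 to 1870.5, 1767 and 1751 (log2 fold change 0.74, SE 0.08, limma adjusted p = 1.2e-08). Those 5 changed by 0.74 or more on the log2 scale, at every scaling tried by at least 0.48.

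The remaining called synthetases changed by about 0.5 on the log2 scale, with small spread among the midkine libraries. Iars, for isoleucine, went from 264, 217 and 233 to 339, 337 and 348 (log2 fold change 0.52), and Aars, for alanine, from 245, 207 and 217 to 313, 314 and 311 (0.49). Nars, for asparagine, went from 1047, 1075 and 1101 to 1527, 1441 and 1497 (0.47). Gars, for glycine, whose gene makes both the cytosolic and the mitochondrial enzyme, went from 379, 400.2 and 389.8 to 524, 541 and 535 (0.45). With scaling to total reads Aars (0.23) and Gars (0.19) were no longer called, which left 7 synthetases higher. Among those not called, Lars, for leucine, was at 483, 372 and 465 and 487, 464 and 429 (95% interval of the log2 fold change -0.14 to 0.28) and Tars, for threonine, at 437, 408 and 395 and 485, 422 and 424 (-0.09 to 0.29). Wars, for tryptophan and known to be induced by interferon gamma, was at 93.5, 86.8 and 115 and 92.4, 80.6 and 79.7 (-0.52 to 0.10). The groups of these 3 overlapped. With scaling to total reads Lars (-0.19) and Tars (-0.16) were negative and not called, and Wars was called lower at -0.47. The upper ends of these 3 intervals, 0.29 at most, lay below the smallest log2 fold change of a called synthetase, 0.45 for Gars. The 95% intervals of Gars (0.27 to 0.63) and Aars (0.28 to 0.70) still overlapped that of Tars. The interval of Gars also just overlapped that of Lars, so the 2 sets were not cleanly apart.

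The cytosolic synthetases outside the member list gave a different count. Of Dars, Hars, Kars, Qars, Rars, Vars, Farsa and Farsb, none was called higher and Farsa, a subunit of the phenylalanine enzyme, was called lower, from 1188, 1276 and 1332 to 812, 1022 and 969.5 (log2 fold change -0.44, SE 0.09, limma adjusted p = 0.0002). Their median log2 fold change was -0.05, against 0.51 for the 12 members and -0.01 for all genes. The member list gathers synthetases known as targets of the response, and the difference between the groups of enzymes was not tested. Several of these enzymes sit in 1 large multisynthetase complex, and its subunits did not move together: Eprs (0.74), Mars (1.14) and Iars (0.52) rose, while Lars (0.07), Dars (0.12), Qars (0.18), Rars (-0.01) and Kars (-0.27) were not called. Of its scaffold genes Aimp1 was called higher (0.31, overlapping Tbck at the start of Aimp1), Aimp2 lower (-0.39) and Eef1e1 was not called (-0.16). The groups of Aimp2 overlapped, and its call was lost in DESeq2, with no filter on low values and without control replicate 2, control replicate 3 or midkine replicate 2. The call on Aimp1 was lost without control replicate 3 and with scaling to total reads. That scaling gave 6 lower among the 11 enzymes and scaffold genes (54.5%, beside 40.7% of all genes). Without midkine replicate 2 these 11 held 2 higher and 1 lower, and without control replicate 2 or 3 they held 1 lower. The motif of the members was found in 0 of 8 windows of this list, 5 of them of enzymes.

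Mitochondrial synthetases, encoded by separate nuclear genes, also stayed near the median of all genes, at a median of 0.03. Of 17, 1 was called higher (5.88%) and 2 lower (11.8%), beside 20.9% and 21.8% of all genes. Ears2, for glutamate, was the exception, at 42.5, 40.1 and 45.9 in control and 112, 104 and 92.8 in midkine libraries (log2 fold change 1.24, SE 0.16, limma adjusted p = 8.7e-07). Its exons share 89 bases with Ubfd1 on the other strand, at the start of Ears2 and not at its 3′ end. Yars2 (-0.67) and Hars2 (-0.40) were called lower, and neither call held in DESeq2. Exons of Hars2 overlap those of Hars at the starts of both genes. No mitochondrial synthetase was called lower without control replicate 3 or without midkine replicate 1, and leaving out any other library left 1 lower. Without control replicate 2, 2 were called higher. Of the 17, 9 reached a mean normalised read count of 50, whereas all 12 member synthetases did. The part of these lower counts in the few calls was not tested.

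**Figure D4:**
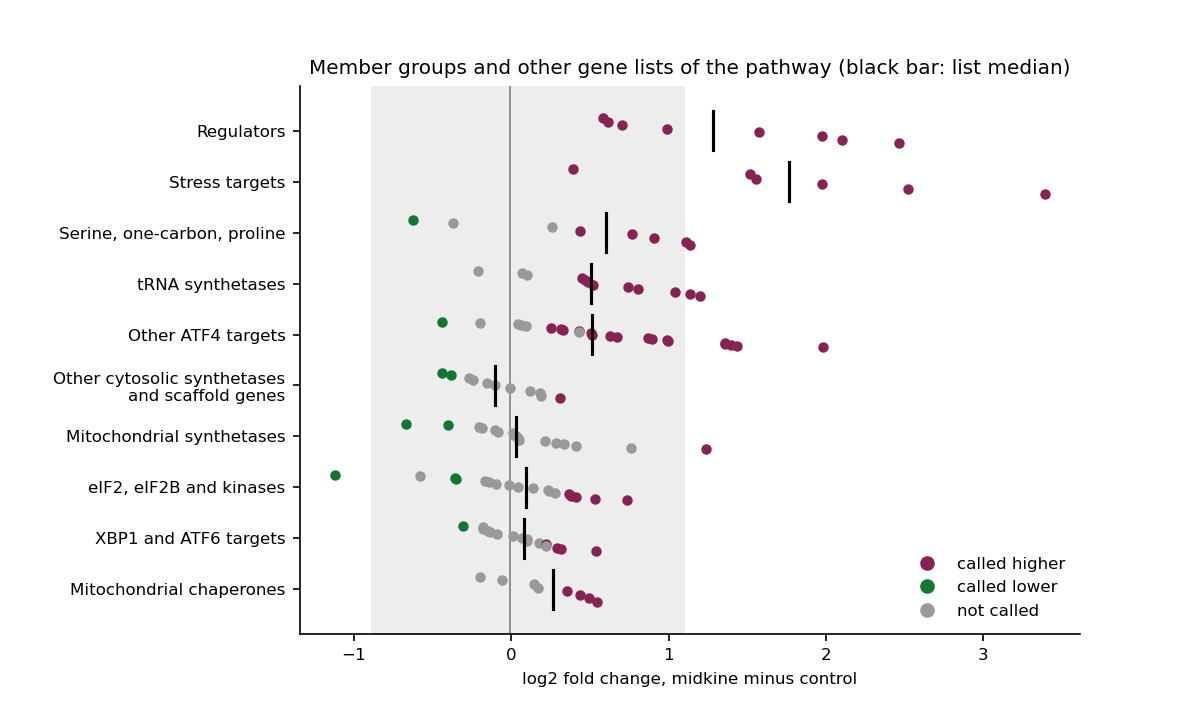
Log2 fold change, midkine minus control (x axis), of the genes of each member group and of other lists of the pathway, 1 point per gene coloured by its call, with a black bar at the list median and a grey band from the 5th to the 95th percentile of all genes tested. Other ATF4 targets have a median of 0.51, whereas the other cytosolic and the mitochondrial synthetases lie around 0.

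Other genes widely used as ATF4 targets were mostly higher: of 23 tested 17 were called higher and 1 lower, at a median of 0.51. With scaling to total reads 12 were called higher. Slc7a11, the cystine importer, went from 17.0, 11.2 and 10.4 to 50.7, 60.5 and 47.4 (log2 fold change 1.98, SE 0.26, limma adjusted p = 6.5e-07). Atf3, a stress-induced repressor, went from 111, 146 and 130.3 to 364, 394 and 297 (1.43), and Slc1a4, a transporter of alanine and serine, from 28.3, 42.0 and 47.9 to 113, 101 and 95.8 (1.39). Slc1a5, a glutamine transporter, ran the other way, from 401, 344 and 364 to 272, 271 and 272 (log2 fold change -0.44, SE 0.10, limma adjusted p = 0.00063). Of 18 of these genes with a promoter window 6 held the motif, Atf3, Slc7a11 and Slc1a4 among them.

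Upstream of ATF4, the shares of called genes lay near those of all genes tested. Of 18 genes for eIF2, its exchange factor eIF2B, its kinases and their partners, 5 were called higher (27.8%) and 3 lower (16.7%), beside 20.9% and 21.8% of all genes, and their median was 0.09. Of the kinases, Eif2ak3, which encodes PERK, the sensor of unfolded protein, went from 162, 138 and 139 to 190.4, 183 and 209 (log2 fold change 0.41, SE 0.12, limma adjusted p = 0.00664). Eif2ak2, the interferon-induced sensor of double-stranded RNA, fell from 208, 178 and 200.1 to 94.7, 105 and 71.6 (log2 fold change -1.12, SE 0.14, limma adjusted p = 4.5e-07), and Eif2ak1, the heme sensor, whose exons overlap those of Aimp2 on the other strand, fell by 0.36. Eif2ak4, which encodes GCN2, the sensor of uncharged tRNA, was not called (log2 fold change 0.28, SE 0.15, limma adjusted p = 0.13), while Impact, an inhibitor of GCN2, rose by 0.53, a call lost with scaling to total reads. Of the eIF2 subunits Eif2s2 rose by 0.74 and Eif2s3x by 0.37, the latter not called with scaling to total reads. Eif2s1, which carries the phosphorylated site, fell by 0.35, a call lost without control replicate 2 or midkine replicate 2. Without control replicate 2, 3 genes of the list were called higher and 2 lower. With scaling to total reads 1 gene of this list was called higher and 7 lower (38.9%, beside 40.7% of all genes), Eif2ak3 no longer among the higher.

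Among targets of the other branches of the unfolded protein response the share called higher was near that of all genes, and few were called lower. Of 16 targets of XBP1 and ATF6, factors that raise the folding capacity of the endoplasmic reticulum, 4 were called higher (25%) and 1 lower (6.25%), beside 20.9% and 21.8% of all genes, at a median of 0.08. Hspa5, the main chaperone of that compartment, went from 10154, 10206 and 9787 to 15069, 14328 and 14372 (log2 fold change 0.54, SE 0.08, limma adjusted p = 2.7e-06). Hyou1 rose by 0.31 and Sel1l by 0.29, and Sdf2l1 was called lower (-0.31), a call lost in DESeq2, with quantile normalization, with no filter on low values and without any 1 library other than midkine replicate 1. Xbp1 itself was not called (-0.18, limma adjusted p = 0.113). Of 8 mitochondrial chaperones and proteases 4 were called higher and none lower, Hspa9 by 0.54, Dnaja3 by 0.49 and Afg3l2 by 0.43, while Hspd1 was at -0.06. Exons of Hspd1 and Hspe1 overlap on opposite strands at the starts of both genes, and Dnaja3 shares exonic bases with Coro7 and Vasn. Both counts were unsteady. Scaling to total reads left 1 of the XBP1 and ATF6 targets higher and 7 lower (43.8%, beside 40.7% of all genes), and 1 of the mitochondrial genes higher and 2 lower. Without control replicate 2 the counts of higher genes were 2 and 1, and 2 and 3 without control replicate 3. Without midkine replicate 1 they were 2 and 4, without midkine replicate 2 they were 4 and 2, and without midkine replicate 3 they were 4 and 1.

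**Figure D5:**
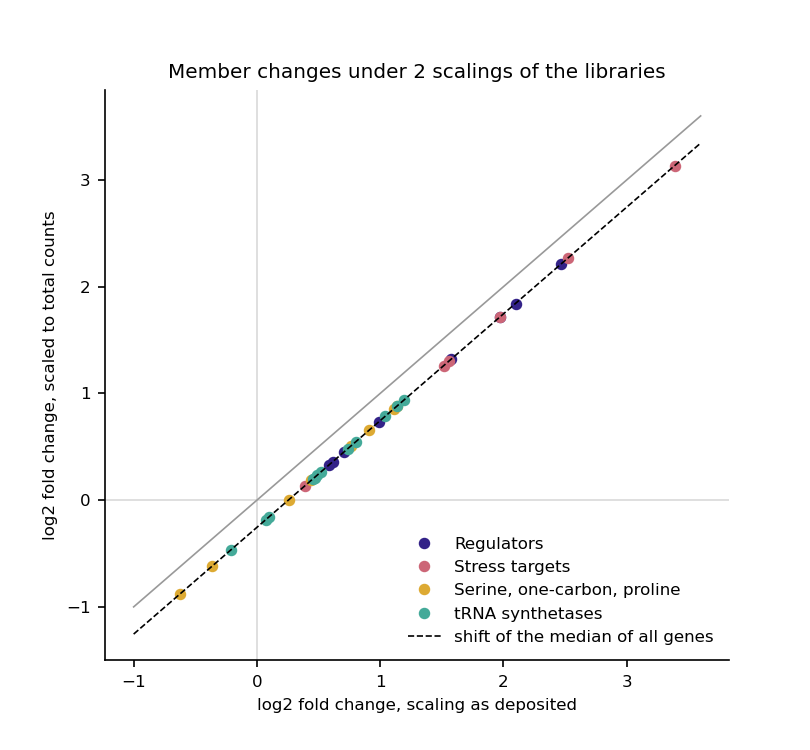
Log2 fold change of the members with the scaling as deposited (x axis) and with scaling to total reads (y axis), 1 point per member, coloured by group. The members lie along the dashed line, which marks the shift of the median of all genes from -0.01 to -0.26, below the grey line of equal values. Rescaling libraries shifts all genes nearly alike, so this position follows from the scaling itself.

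The control libraries were not level in these genes. Control replicate 1 had the lowest value of its group for 10 of the 14 regulators and stress targets, and for 21 of the 34 members, where it was lowest for 36.2% of all genes tested. It had the highest value for 1 of those 14, Ppp1r15a. Among midkine libraries replicate 1 was lowest for 7 of the 14, replicate 2 for 4 and replicate 3 for 3. Without control replicate 1 the 8 regulators, 6 stress targets and 9 synthetases were still called higher. The log2 fold change of Gdf15 was then 3.13, that of Ddit3 1.88 and that of Nupr1 1.37.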

How the data were processed

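RNA of 6 samples was sequenced from its 3′ end (QuantSeq FWD kit, 500 ng total RNA, RNA integrity number 5 to 10 with a mean of 8, per the labels' protocols). Per the submitters' processing notes, the tools were TopHat2 2.0.10 with Bowtie 1.0.0, HTSeq, DESeq2, SAMtools 0.1.19 and FastQC 0.11.0, on builds GRCm38 and mm10. Which annotation and strand setting HTSeq used is not given in the sources used here. Deposited values are a normalised signal: in each library they are multiples of 1 step, from which whole reads were recovered for 100% of values within 1e-06, as read counts divided by a size factor would give. No molecular identifiers are named, so reads are not known to be independent molecules.

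Genes with a mean of at least 10 (11844 of 14912) were tested with limma 3.58.1 on log2(value + 1), midkine against control, and adjusted by Benjamini-Hochberg at 0.05. Fold changes on this scale understate the change of low genes. As an alternative on the recovered reads, edgeR 4.0.16 called 2585 genes higher and 2572 lower, 5011 of them also called by limma. DESeq2 1.42.0, other scalings, filters and pseudocounts, a replicate block and leaving out each library were also tried. The limma fit was tested on simulated data for this comparison (11738 genes): of the genes given a 1.5-fold change it found 42 of 65, at 2-fold 55 of 63 and at 4-fold 65 of 65, and 6.9% of its calls were false.

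All members are named, with the 3 called genes of largest rise and of largest fall in each other pathway list; genes beyond these were named for their role after their values were seen. Members and lists were chosen with earlier results of these data known. Positions and exons come from GENCODE vM21, in which 14852 of the table's symbols were found, and promoter sequences from RefSeq, of which 1 member's sites are not reported here. Counts over other genes of the pathway are descriptions, with no test of the list.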

Additional observations from a re-analysis of the deposited data

How the results depend on the processing

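Of the 34 members, 28 kept their call in every alternative run for them, 17 for 31 members and 16 for Psph, Pycr1 and Vldlr, which a minimum mean of 50 left out. Of 575 member results 562 kept their call. No called member changed sign, while Lars and Tars, not called, did so in 4 results, both with scaling to total reads and Lars also with scaling without ribosomal RNA rows and without control replicate 2. The exceptions were Phgdh (8 alternatives) and, with scaling to total reads, Sesn2, Psph, Aars, Gars and Wars. That scaling called 1283 genes higher and 4817 lower, 2 metabolic members lower and 1 synthetase lower, and gave 26 of 93 other listed genes another sign. Of these 26, 3 were called under either scaling: Slc7a1 (-0.0071), Manf (-0.2436) and Hsp90b1 (-0.0396, and -0.0532 with quantile normalization). Scaling without ribosomal RNA rows called 2023 higher and 3178 lower, and DESeq2 2067 and 2021.

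Leaving out 1 library gave 2139 to 2287 genes higher and 2136 to 2344 lower. Among members it gave 8 regulators, 6 stress targets, 4 to 5 metabolic genes and 9 synthetases higher, and 0, 0, 1 and 0 lower. With replicate number as a block, 2519 genes were called higher and 2641 lower. Deviations of libraries with the same number correlated at -0.0097, 0.0286 and -0.0578, and control replicate 1 correlated best with midkine replicate 3 (0.054). These values show no sign of pairing by number. They cannot exclude it, since paired samples need not share a visible deviation. Depth limits the lowest members most: Psph and Vldlr rest on 17 reads in their lowest library and Pycr1 on 19.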
